A study of Mus musculus with 22 samples.

Results

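Prostaglandin enzymes of the mouse aortic intima were followed on 22 Affymetrix arrays. The 9 listed genes were Ptgs1, Ptgs2, Ptges, Ptgis, Ptgds, Hpgd, Pla2g4a, Tbxas1 and Alox5ap, and 8 of them had at least 1 probe set in the platform annotation, out of 11807 annotated genes on the array. No probe set used here carried Ptgs1, which encodes the constitutive cyclooxygenase, so it was not analysed. The 8 genes had 12 probe sets, and where a gene had several, the brightest on average across the 22 arrays stands for it.

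RNA was taken from the scraped intima of aortas of C57BL/6 mice on chow diet, amplified and labelled with biotin. Wild-type aortas were opened and kept for 4 h in DMEM with 1% serum that held lipopolysaccharide (LPS, 4 ng/mL, 3 arrays), oxidized LDL (oxLDL, 50 µg/mL, 3 arrays), oxidized palmitoyl-arachidonoyl-phosphocholine (oxPAPC, 50 µg/mL, 3 arrays) or no addition (medium, 3 arrays). The age of the mice whose aortas were incubated is not given in the labels. Fresh intima came from 4-week-old ApoE-/- mice (4 arrays), which lack apolipoprotein E in every tissue and are hyperlipidemic, and from 4-week-old wild-type mice (6 arrays). In the ApoE-/- group the lost gene and the raised lipids come together and cannot be told apart. The labels do not say how many mice stand behind an array, so the p-values measure the spread between these arrays, which may be partly technical. All values are log2 signals as deposited, called signals from here on, and a difference of 1 is a 2-fold change.

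Prostanoids are made in steps. Cytosolic phospholipase A2 (Pla2g4a) frees arachidonate from membrane phospholipids, the cyclooxygenases (Ptgs1, Ptgs2) turn it into prostaglandin H2, and terminal synthases turn that into prostacyclin (Ptgis), thromboxane (Tbxas1), prostaglandin E2 (Ptges) or prostaglandin D2 (Ptgds, Hpgds). Endothelium is known for prostacyclin, which relaxes smooth muscle and keeps platelets from aggregating. Hpgd encodes 15-hydroxyprostaglandin dehydrogenase, which inactivates prostaglandins once Slco2a1 has carried them into the cell. Alox5ap encodes the protein that presents arachidonate to 5-lipoxygenase for leukotriene synthesis.

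The intima on these arrays held more than endothelial RNA. Of 17 endothelial markers, 15 were above the 40th percentile of the array on all 22 arrays and 1, Robo4, on none. Of 14 smooth muscle markers on the array, 12 were above it on all arrays. The mean signal of the smooth muscle markers lay between 8.11 and 8.91 under the 3 stimuli, between 7.31 and 8.25 in medium and between 8.48 and 9.32 in fresh intima. In such bulk samples fewer cells of a type and less RNA per cell cannot be told apart. Arrays of 1 group correlated at 0.977 to 0.991 over all genes, with the lowest value within oxPAPC, and fresh with incubated arrays at 0.911 to 0.938.

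Ptgs2, the inducible cyclooxygenase, was at a high signal in every incubated aorta and at a low one in every fresh aorta. Its signals were 11.21, 10.95 and 10.90 in medium, against 4.46, 4.12, 5.90, 4.36, 5.20 and 4.46 in fresh wild-type intima. The lowest incubated array stood at 10.87, in oxPAPC, and the highest fresh one at 5.90, so the 12 incubated and 10 fresh arrays did not overlap. Ptgs2 rose by 6.27 in medium over fresh wild-type intima (SE 0.339, 95% interval 5.52 to 7.02, limma with Benjamini-Hochberg adjustment, adjusted p = 3.75e-07). This was the largest rise among the 7508 genes tested in that comparison.

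The second Ptgs2 probe set gave the same order. It read 10.56, 10.24 and 10.08 in medium, against 3.51, 3.21, 3.58, 3.35, 3.01 and 3.12 in fresh wild-type intima, a rise of 7.00 (SE 0.151, adjusted p = 4.46e-09). All 6 fresh values of that probe set, and 4 of the 6 of the first, were below the 40th percentile of their array, so the size of the rise depends on signals near background. Opening the vessel and the 4 h in medium go together in these groups and cannot be told apart, and the part of age, not given for the incubated aortas, was not tested. Markers of cell types were called in medium as well, where 24.3% of all genes were higher and 34.4% lower. Of 14 smooth muscle markers 12 were lower and 0 higher, and of 16 endothelial markers 4 were higher and 4 lower. Of 12 macrophage and leukocyte markers 11 were higher and 0 lower. Of 8 fibroblast markers 2 were higher and 5 lower, of 5 mesothelial and adipose markers 3 were higher and 0 lower, and of 6 erythroid and platelet markers 0 were higher and 3 lower. A marker above the 40th percentile only on the 3 medium arrays passed the level filter there, which favours counts of higher markers. Over all 15 macrophage and leukocyte markers on the array, the mean signal was 5.98 to 6.14 in medium, against 4.60 to 5.23 in fresh wild-type intima. The part of the cell type markers in the rise of Ptgs2 was not tested.

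The Ptgs2 start region is shown because Ptgs2 had the largest rise, and the Hpgd start region because Hpgd was the member that fell under LPS. Each window is 300 bases of RefSeq sequence on the plus strand of GRCm38.p6, with 250 bases before and 50 after the annotated start, at chr1:150099781-150100080 for Ptgs2 and chr8:56294302-56294601 for Hpgd. Of the 9 listed genes, 7 had such a window. Capitals mark matches, on either strand, to the motifs named after the sequences.
Ptgs2: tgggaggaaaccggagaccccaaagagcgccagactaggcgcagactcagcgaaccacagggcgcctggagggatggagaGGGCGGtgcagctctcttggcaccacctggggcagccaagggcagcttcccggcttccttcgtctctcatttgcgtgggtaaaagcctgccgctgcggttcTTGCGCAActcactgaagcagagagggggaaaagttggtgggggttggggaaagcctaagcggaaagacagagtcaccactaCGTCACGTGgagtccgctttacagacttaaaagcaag
Hpgd: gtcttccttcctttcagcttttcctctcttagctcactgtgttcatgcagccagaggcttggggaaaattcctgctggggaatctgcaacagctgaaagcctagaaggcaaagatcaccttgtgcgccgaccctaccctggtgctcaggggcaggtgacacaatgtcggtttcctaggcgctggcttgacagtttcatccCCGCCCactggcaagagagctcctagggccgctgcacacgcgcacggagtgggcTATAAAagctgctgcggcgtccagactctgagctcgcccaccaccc
The Ptgs2 window held TTGCGCAA, a palindrome bound by C/EBP factors, 69 bases before the start, a match found in 0.183% of 32851 mouse start windows. A CRE half-site, CGTCA, began 14 bases after the annotated start, and its letters were in 20.8% of all windows. An E-box, CACGTG, began 17 bases after the start and overlapped it, with its letters in 7.15% of windows. A GC box, GGGCGG, lay 170 bases before the start, as in 35.7% of all windows. The Hpgd window held a GC box on the minus strand 50 bases before the start and the TATA box letters TATAAA 5 bases after it, letters that 13.6% of windows held. The Hpgd window had no match to the other 3 motifs, and the Ptgs2 window none to TATAAA. These matches describe letters, and binding was not measured.

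None of the 3 stimuli moved Ptgs2 beyond the level in medium by a margin the test passed. Signals were 11.19, 11.24 and 11.42 in LPS, 11.19, 10.99 and 11.02 in oxLDL and 10.92, 10.87 and 11.42 in oxPAPC, all overlapping the medium arrays. The difference from medium was 0.26 for LPS (95% interval -0.10 to 0.62, adjusted p = 0.322), 0.05 for oxLDL (-0.31 to 0.41, adjusted p = 0.898) and 0.05 for oxPAPC (-0.31 to 0.41, adjusted p = 0.853). On the second probe set the intervals reached 0.84 for LPS and 0.53 for oxPAPC. There the 3 oxLDL arrays read 9.88, 9.56 and 9.65 and lay below all 3 medium arrays. The oxLDL difference from medium was -0.60 (95% interval -1.14 to -0.06, limma adjusted p = 0.213). LPS against oxLDL differed by 0.90 on that probe set (0.36 to 1.44, limma adjusted p = 0.0772). The intervals are not adjusted for the number of genes tested.

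**Figure D1:**
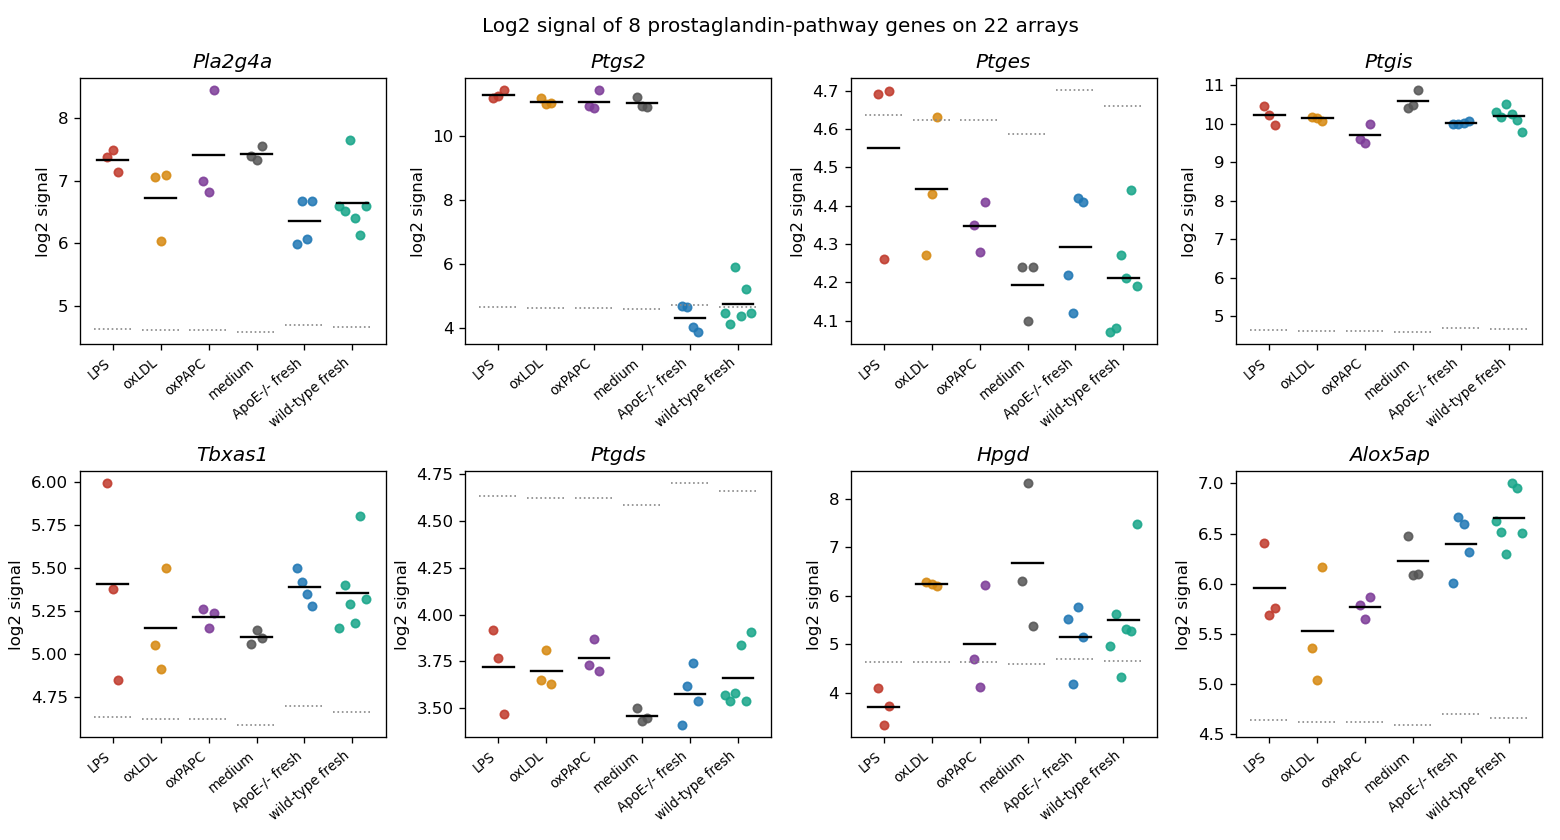
Log2 signal (vertical axes) of the 8 prostaglandin genes on each array, in the 6 groups from LPS, oxLDL, oxPAPC and medium to fresh ApoE-/- and fresh wild-type intima. Each point is 1 array, the black bar is the group mean and the dotted line is the mean 40th percentile of the group's arrays. The 12 incubated arrays of Ptgs2 sit at 10.87 or above and the 10 fresh ones at 5.90 or below, and the 3 Hpgd signals in LPS lie under the dotted line.

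Pla2g4a, the phospholipase that supplies the cyclooxygenases, was also higher in medium than in fresh wild-type intima, by far less. It read 7.39, 7.33 and 7.56 in medium, against 6.60, 6.52, 7.65, 6.41, 6.14 and 6.60 in fresh wild-type intima. The ranges overlapped through wild-type replicate 12, which at 7.65 was above all 3 medium arrays. Pla2g4a rose by 0.77 (SE 0.268, 95% interval 0.18 to 1.37, limma adjusted p = 0.0285), at rank 1140 among the rises. The call was lost when medium replicate 9, 10 or 11 or wild-type replicate 13 was left out (highest adjusted p = 0.0892) and with all 22 arrays in 1 fit (adjusted p = 0.0504). Ptgs2 and Pla2g4a are neighbours on chromosome 1, with 0 protein-coding genes between them in the RefSeq annotation.

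Of the 6 members tested between medium and fresh wild-type intima, 2 rose, Ptgs2 and Pla2g4a, and 0 fell. Of all genes tested 24.3% rose and 34.4% fell, 58.7% in either direction, so a call there was common and 2 of 6 is no excess. The ranges of medium and fresh wild-type arrays did not overlap for 2 of the 6 members, Ptgs2 and Tbxas1, and for 52.4% of all genes. The median difference over all genes was -0.13 on this scale, and centring each array on its median moved the Ptgs2 difference to 6.35. Ptgs2 passed the level filter on 5 of the 9 arrays, the 3 medium arrays among them. Ptges and Ptgds did not pass it and were not tested there.

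The prostacyclin synthase gene Ptgis was at a high signal in all groups, between 9.50 and 10.86. In medium it read 10.41, 10.48 and 10.86, against 10.30, 10.18, 10.52, 10.26, 10.09 and 9.78 in fresh wild-type intima, with a difference of 0.39 (95% interval 0.03 to 0.76, adjusted p = 0.0616). That difference passed the threshold in 5 alternatives, among them centring each array on its median (adjusted p = 0.0289) and leaving out wild-type replicate 12 (adjusted p = 0.0297), and it was 0.25 (adjusted p = 0.251) without medium replicate 11. Alox5ap read 6.48, 6.09 and 6.10 in medium, against 6.63, 6.52, 6.30, 7.00, 6.95 and 6.51 in fresh wild-type intima (difference -0.43, adjusted p = 0.0522). That difference was -0.34 (adjusted p = 0.111) with median centring and -0.25 (adjusted p = 0.231) with cyclic loess. Tbxas1 read 5.06, 5.14 and 5.09 in medium, just under the lowest fresh wild-type signal of 5.15 (difference -0.26, adjusted p = 0.146).

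oxPAPC lowered Ptgis. Signals were 9.59, 9.50 and 10 in oxPAPC, against 10.41, 10.48 and 10.86 in medium, with no overlap. Ptgis fell by 0.88 on the log2 scale (SE 0.180, 95% interval -1.28 to -0.49, limma adjusted p = 0.00756), a 1.85-fold lower signal. The fall had rank 493 among those of 7550 genes. It remained past the threshold when each of the 6 arrays was left out in turn (differences -1.04 to -0.75, adjusted p 0.00303 to 0.0369).

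Endothelial markers were lower on the same arrays. Of 16 endothelial markers tested, 9 fell and 0 rose in oxPAPC, where 12.9% of all genes fell and 8.34% rose. The mean signal of the endothelial markers lay between 7.60 and 8.10 in oxPAPC, against 8.42 to 8.59 in medium. Smooth muscle markers were higher, with 10 of 14 risen and 0 fallen, at a mean of 8.51 to 8.91 in oxPAPC, against 7.31 to 8.25 in medium. With the endothelial marker mean as a covariate, an alternative chosen after seeing the data, the Ptgis difference was -0.22 (SE 0.279, limma adjusted p = 0.808). That fit called 21 genes in oxPAPC against medium, against 1606 without the covariate. The marker means of oxPAPC and medium did not overlap, so marker level and stimulus are hard to tell apart in that fit.

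Mean Ptgis signals in the other stimuli lay between those of oxPAPC and medium, and the LPS arrays overlapped both groups. Signals were 10.45, 10.23 and 9.96 in LPS (difference from medium -0.37, limma adjusted p = 0.208). In oxLDL they were 10.17, 10.15 and 10.08 (difference -0.45, adjusted p = 0.180). The direct difference was 0.52 for LPS minus oxPAPC (95% interval 0.12 to 0.91, adjusted p = 0.0967) and 0.44 for oxLDL minus oxPAPC (0.05 to 0.83, adjusted p = 0.131). Neither passed the threshold, and both passed it without oxPAPC replicate 13 (0.67, adjusted p = 0.0294, and 0.59, adjusted p = 0.0439). The fall against medium is therefore not shown to be particular to oxPAPC.

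Hpgd, the gene of the enzyme that breaks prostaglandins down, fell under LPS. Signals were 4.09, 3.33 and 3.72 in LPS, against 6.30, 8.31 and 5.38 in medium. On all 3 LPS arrays the signal was under the array's 40th percentile, and on all 3 medium arrays over it. Hpgd fell by 2.95 on the log2 scale (SE 0.638, 95% interval -4.34 to -1.56, limma adjusted p = 0.0193), and the size of the fall depends on LPS signals near background. The second Hpgd probe set gave 3.67, 3.51 and 3.78 in LPS, against 5.63, 7.56 and 4.84 in medium, a fall of 2.36 (adjusted p = 0.0283). Without LPS replicate 4 the difference was no longer past the threshold (adjusted p = 0.0625), and over all 6 omissions it ranged from -3.59 to -2.13.

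**Figure D2:**
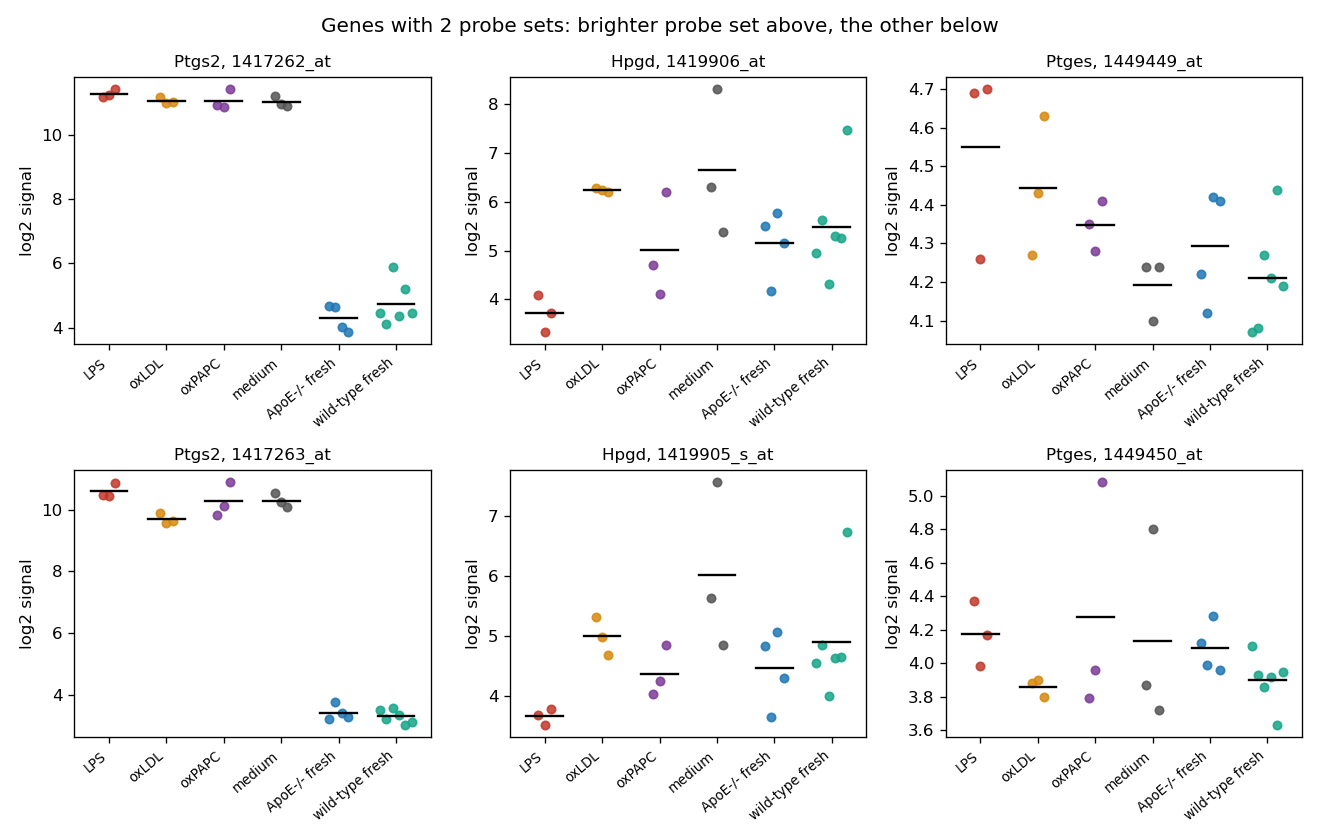
Log2 signal (vertical axes) of both probe sets of Ptgs2, Hpgd and Ptges in the 6 groups, with the brighter probe set above and the other below. Each point is 1 array and the black bar is the group mean. The incubated and fresh arrays are apart on both Ptgs2 probe sets, and medium replicate 10 is the highest Hpgd array on both (8.31 and 7.56).

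Several arrays high in Hpgd were also high in markers of mesothelium, the sheet that covers serous surfaces. Upk3b, a mesothelial gene, read 6.02, 4.12 and 5.35 in LPS, against 8.69, 10.15 and 7.76 in medium. The medium array highest in Hpgd, replicate 10, was also highest in Upk3b and in Wt1 (7.63), and the fresh wild-type array highest in Hpgd, replicate 15 (7.47), had the highest fresh Upk3b signal (10.18). Within LPS and within medium the arrays had the same order in Hpgd and in Upk3b. In oxPAPC replicate 13 was highest in both, and the other arrays had opposite orders. In ApoE-/- intima replicate 4 was lowest in both (Hpgd 4.18, Upk3b 4.44). Replicate 3 had the highest Upk3b signal there, 9.25, with an Hpgd signal of 5.51, under the 5.77 of replicate 5. Upk3b ran from 6.80 to 8.07 in oxLDL while Hpgd stayed between 6.20 and 6.28. Of the 5 mesothelial and adipose markers tested in LPS against medium, limma called 0, beside 9.05% of all genes. All 5 had an unadjusted limma p under 0.05, with a median difference of -1.37 beside -0.03 over all genes. The mean of the 6 on the array lay between 4.93 and 5.24 in LPS, against 5.71 to 7.30 in medium. With the mean of the mesothelial markers Upk3b, Msln, Krt19 and Wt1 as a covariate, an alternative chosen after seeing the data, the Hpgd difference between LPS and medium was -1.04 (SE 0.390, limma adjusted p = 0.169). That fit called 211 genes in LPS against medium, against 683 without the covariate. Across the 12 incubated arrays the genes most like Hpgd were Fbln1 (Pearson r 0.929), Krt18 (0.921) and Serping1 (0.919) among 7550 genes, a description over arrays that share groups.

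**Figure D3:**
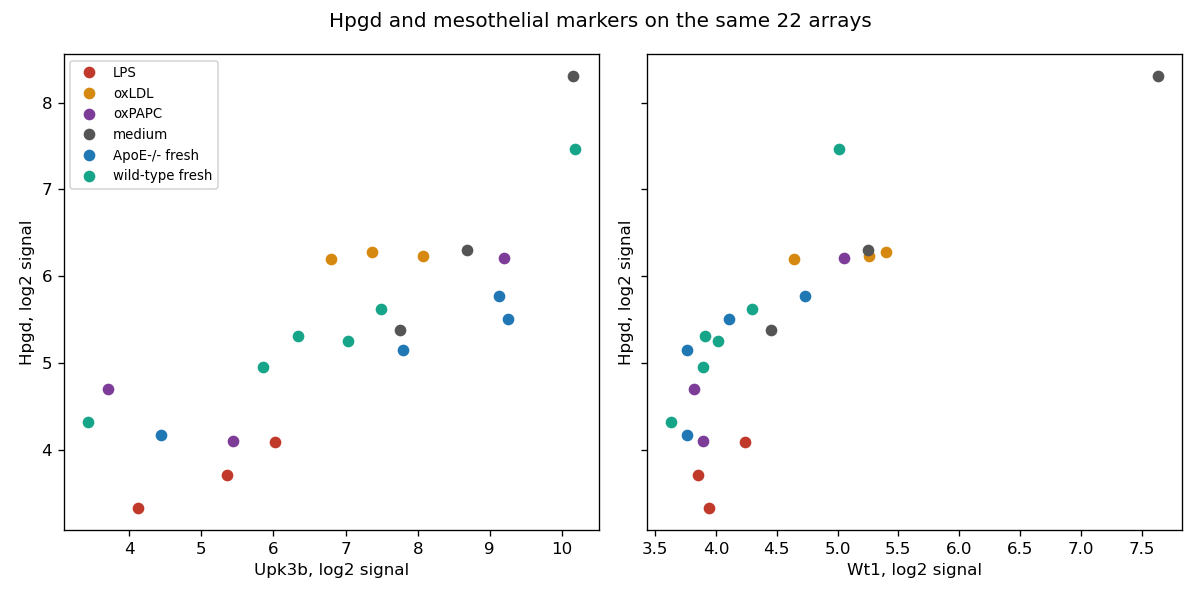
Hpgd log2 signal (vertical axis) against the log2 signal of the mesothelial genes Upk3b (left) and Wt1 (right). Each point is 1 of 22 arrays, coloured by group. Medium replicate 10 is at the upper right of both panels (Hpgd 8.31, Upk3b 10.15, Wt1 7.63) and the 3 LPS arrays have the lowest Hpgd signals, 3.33 to 4.09.

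The oxidized lipids left Hpgd with less certain differences. In oxPAPC it read 4.70, 4.11 and 6.21, overlapping the medium arrays, with a difference of -1.66 (adjusted p = 0.0821). The array at 6.21, oxPAPC replicate 13, had a Upk3b signal of 9.19, against 3.70 and 5.44 on the other oxPAPC arrays. The difference passed the threshold without that array (-2.26, adjusted p = 0.0231) and without medium replicate 11 (-2.30, adjusted p = 0.0316). It was -0.84 (limma adjusted p = 0.269) without medium replicate 10 and -0.19 (adjusted p = 0.764) with the mesothelial mean as a covariate. With that covariate 463 genes were called in oxPAPC against medium, against 1606 without it. In oxLDL Hpgd read 6.28, 6.24 and 6.20, inside the medium range (difference -0.43, 95% interval -1.82 to 0.97, adjusted p = 0.728). The second probe set gave -1.02 in oxLDL (adjusted p = 0.320) and -1.64 in oxPAPC (adjusted p = 0.0603).

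Set directly against each other, LPS and oxLDL differed in Hpgd. The 3 LPS signals lay below the 3 oxLDL signals, with a difference of -2.52 (SE 0.638, adjusted p = 0.0423). The call was lost when any one of the 6 LPS and oxLDL arrays was left out (adjusted p 0.0802 to 0.128), with no level filter (adjusted p = 0.0662) and on the second probe set (-1.34, adjusted p = 0.214). With the mesothelial mean as a covariate the difference was -1.34 (SE 0.327, limma adjusted p = 0.0494). That fit called 263 genes in LPS against oxLDL, against 383 without the covariate. LPS minus oxPAPC was -1.29 for Hpgd (adjusted p = 0.228) and oxLDL minus oxPAPC was 1.23 (adjusted p = 0.227). In medium against fresh wild-type intima Hpgd differed by 1.17 (adjusted p = 0.168), by 1.57 (adjusted p = 0.0338) without wild-type replicate 15 and by 0.35 (adjusted p = 0.682) without medium replicate 10. Of 5 mesothelial and adipose markers 3 were higher and 0 lower in that comparison, where 24.3% of all genes were higher and 34.4% lower. Markers high only in medium could pass the level filter there, which favours such a count. The mean of the 6 on the array was 5.71 to 7.30 in medium and 4.69 to 6.44 in fresh wild-type intima, which overlapped. The part of these markers in the Hpgd difference was not tested.

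In counts, 1 of 7 tested members fell under LPS (Hpgd) and 0 rose, where 5.68% of all genes fell, 3.36% rose and 9.05% were called in either direction. Under oxPAPC 1 of 7 fell (Ptgis) and 0 rose, where 12.9% of all genes fell, 8.34% rose and 21.3% were called. Under oxLDL 0 of 7 were called by limma, where 2.81% of all genes were, and 2 of 7 had an unadjusted p under 0.05, Alox5ap and Ptgis. Ranges did not overlap with medium for 2 of 7 members in LPS, 3 in oxLDL and 4 in oxPAPC, where 34.8%, 28.2% and 40.1% of all genes had such ranges, in that order. The 3 comparisons share the medium arrays. Directly between stimuli, 1 of 7 members was called in LPS against oxLDL (Hpgd, lower, with 2.86% of all genes lower and 5.07% called), and 0 of 7 in LPS against oxPAPC and in oxLDL against oxPAPC (8.65% and 12.4% of all genes called, 1 of 7 members with an unadjusted p under 0.05 in each, Ptgis). Ranges did not overlap for 3 of 7 members in LPS against oxLDL (26.4% of all genes), 1 of 7 in LPS against oxPAPC (27.8%) and 1 of 7 in oxLDL against oxPAPC (30%).

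**Figure D4:**
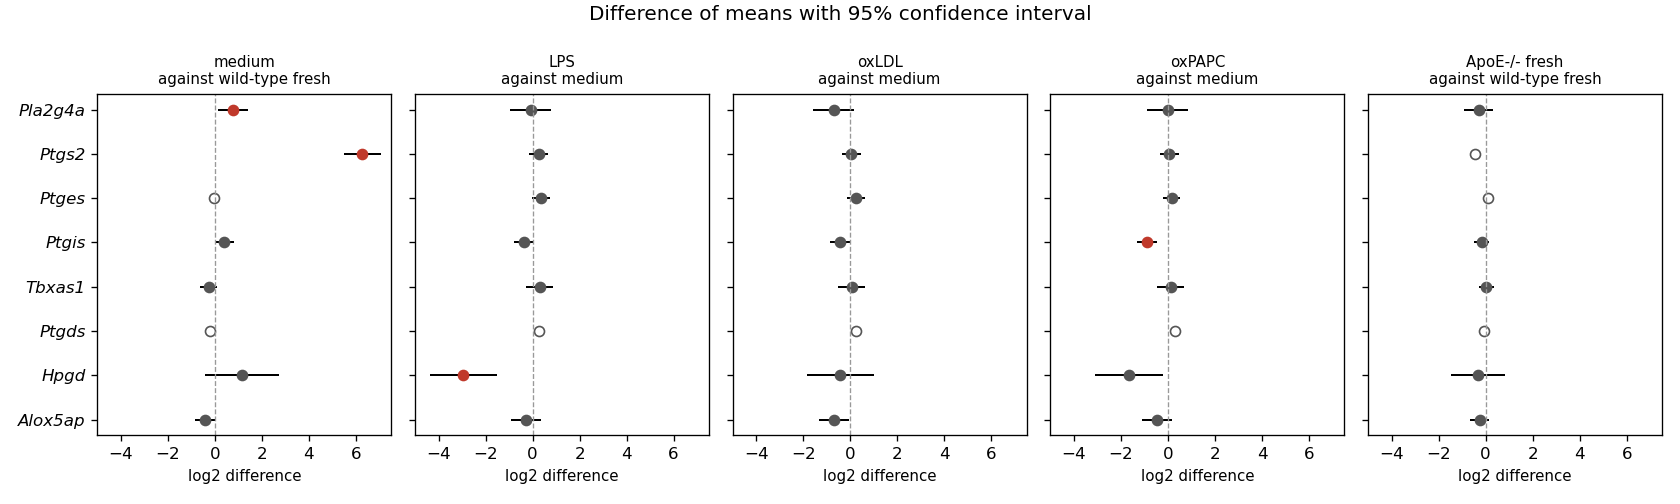
Log2 difference of the 8 genes in the 5 comparisons (horizontal axes), with 95% intervals as bars. Red marks genes called at an adjusted p under 0.05, grey those tested and not called, and open circles those that did not pass the level filter. Ptgs2 and Pla2g4a are red in medium against fresh wild-type intima (6.27 and 0.77), Hpgd in LPS against medium (-2.95) and Ptgis in oxPAPC against medium (-0.88).

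The remaining members moved by less than the test could call under the stimuli. Pla2g4a read 7.38, 7.49 and 7.14 in LPS, 7.06, 6.04 and 7.09 in oxLDL and 6.99, 6.82 and 8.44 in oxPAPC, with differences from medium of -0.09, -0.70 and -0.01. The oxLDL arrays lay below all 3 medium arrays (adjusted p = 0.313). Alox5ap read 6.41, 5.69 and 5.76 in LPS, 5.36, 5.04 and 6.17 in oxLDL and 5.79, 5.65 and 5.87 in oxPAPC, and its differences were -0.27, -0.70 and -0.46 (adjusted p 0.163 to 0.545). Macrophage and leukocyte markers, from cells in which Alox5ap is known to be abundant, were lower on those arrays too, with a mean of 5.23 to 5.91 in LPS, 5.44 to 5.85 in oxLDL and 5.38 to 5.47 in oxPAPC, against 5.98 to 6.14 in medium. Of 14 such markers tested, 4, 1 and 8 fell in LPS, oxLDL and oxPAPC and 0 rose. Of all genes 9.05%, 2.81% and 21.3% were called there, in either direction. In medium against fresh wild-type intima 11 of 12 such markers were higher and 0 lower, while the Alox5ap difference was -0.43. The limit that the level filter sets on this count is given with Ptgs2. Within medium and within oxLDL the arrays had the same order in Alox5ap and in the marker mean, and oxPAPC replicate 12 was lowest in both. Within LPS the orders were opposite, as replicate 3 had the highest Alox5ap signal, 6.41, and the lowest marker mean, 5.23. The part of these markers in the Alox5ap values was not tested. Tbxas1 differed from medium by 0.31, 0.05 and 0.12 (adjusted p 0.431 to 0.921).

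The synthases of prostaglandins E2 and D2 were at or near background. Ptges lay above the 40th percentile on only 3 of 22 arrays, 2 of LPS and 1 of oxLDL. It read 4.69, 4.26 and 4.70 in LPS, against 4.24, 4.10 and 4.24 in medium, without overlap, and the difference of 0.35 did not pass the test (95% interval 0.02 to 0.69, adjusted p = 0.156). Its second probe set read 4.37, 3.98 and 4.17 in LPS, against 3.87, 4.80 and 3.72 in medium, which overlapped. Ptgds was below the 40th percentile on all 22 arrays with both probe sets (2.89 to 3.92). It passed the level filter in no comparison, so limma did not test it in the fits reported.

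In fresh intima, none of the 5 tested members was called between ApoE-/- and wild-type mice, where 0.427% of 7264 genes were, and none had an unadjusted p under 0.05. Ptgis read 10.004, 9.987, 10.007 and 10.066 in ApoE-/- intima, against 10.30, 10.18, 10.52, 10.26, 10.09 and 9.78 in wild-type intima (difference -0.17, 95% interval -0.46 to 0.11). Hpgd read 5.51, 4.18, 5.77 and 5.15 in ApoE-/- intima, against 4.32 to 7.47 in wild-type intima (difference -0.34, interval -1.45 to 0.78). The Hpgd interval is the widest of the 5, so a 2-fold fall is within it. The differences of Pla2g4a, Alox5ap and Tbxas1 were -0.30, -0.25 and 0.03, and the ranges overlapped for all 5 members, where 5.18% of all genes had separate ranges. Ptgs2 stayed low in ApoE-/- intima at 4.68, 4.64, 4.01 and 3.86, and the exact two-sided permutation test of its difference of -0.46 over 210 splits gave p = 0.286. The same exact permutation test gave p = 0.381 for Ptges and 0.457 for Ptgds, which the level filter also left out.

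Other genes of the pathway, 48 of 59 listed in 6 groups by role, show where the members stand. In medium against fresh wild-type intima 17 of the 24 tested were called, where 58.7% of all genes were (24.3% higher, 34.4% lower), so calls in these lists were common there as among all genes. In medium against fresh wild-type intima the synthases and reductases had 2 of 5 tested genes higher and 2 lower. Hpgds, the hematopoietic prostaglandin D synthase, read 7.28, 7.10 and 7.06 in medium, against 3.77 to 4.97 in fresh wild-type intima, and rose by 2.87 (SE 0.224, adjusted p = 3.24e-06). Only 1 of the 6 fresh wild-type signals of Hpgds was above the 40th percentile, so the size of that rise depends on signals near background. Ptges3 rose by 0.42 (adjusted p = 0.00510), and the carbonyl reductases Cbr1 and Cbr3 fell by 0.88 and 0.33 (adjusted p = 0.000987 and 0.0449). Macrophage and leukocyte markers, of cells in which Hpgds is known to be expressed, had a mean signal between 5.98 and 6.14 in medium, against 4.60 to 5.23 in fresh wild-type intima. Their part in the Hpgds rise was not tested.

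Uptake and breakdown genes moved apart in medium against fresh wild-type intima, where 24.3% of all genes rose and 34.4% fell. Slco2a1, the prostaglandin transporter, rose by 1.19 (SE 0.155, adjusted p = 9.18e-05), with 10.46, 10.52 and 10.59 in medium, against 8.91 to 9.59 in fresh wild-type intima. The other 3 tested genes fell, the prostaglandin reductases Ptgr2 and Ptgr1 by 1.26 and 0.90 and the exporter Abcc1 by 0.66 (adjusted p = 8.01e-05, 0.00156 and 0.00360). Among genes of arachidonate release and reacylation, the acyl-CoA synthetase Acsl4 and the plasma phospholipase Pla2g7 rose by 1.50 and 1.63 (adjusted p = 0.000155 and 0.000132), the secreted phospholipase Pla2g5 fell by 1.11 (adjusted p = 0.00140), and the other 4 of 7 tested were not called. All fresh wild-type signals of Pla2g7, 3.61 to 3.97, were below the 40th percentile, so the size of its rise depends on signals near background. The epoxide hydrolases Ephx2 and Ephx1, which break down the epoxides of arachidonate, fell by 2.54 and 0.96 (limma adjusted p = 2.09e-05 and 0.000378). The epoxygenases Cyp2j9 and Cyp2j6 fell by 1.10 and 0.68 (adjusted p = 0.000578 and 0.00355). So 4 of 5 tested in that group fell, beside 34.4% of all genes. Lta4h, which makes leukotriene B4, fell by 0.77 (adjusted p = 0.00160), and the prostaglandin E2 receptor gene Ptger4 fell by 0.42 (adjusted p = 0.0448). Of the receptor genes, 5 of 8 on the array were below the 40th percentile on all 22 arrays, and of the lipoxygenase and leukotriene genes 8 of 10.

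Of the 23 pathway genes tested under the stimuli, limma called 3 in LPS (9.05% of all genes), 0 in oxLDL (2.81%; 3 pathway genes with an unadjusted p under 0.05) and 6 in oxPAPC (21.3%). Hpgds was lower than in medium in LPS, at 5.77, 6.18 and 5.17 (difference -1.44, adjusted p = 0.0205), and in oxPAPC, at 5.63, 5.14 and 5.90 (difference -1.59, adjusted p = 0.00698), against 7.06 to 7.28 in medium. In oxLDL it read 5.99, 5.61 and 6.83, with a difference of -1.002 that was not called (adjusted p = 0.101). The exporter Abcc1 rose in LPS by 0.87 (adjusted p = 0.0141) and in oxPAPC by 1.04 (adjusted p = 0.00304). The lysosomal phospholipase Pla2g15 fell by 1.03 in LPS and by 1.12 in oxPAPC (adjusted p = 0.0188 and 0.00685), with signals of 4.12 to 4.27 in LPS and 3.79 to 4.58 in oxPAPC, all below the 40th percentile. Macrophage and leukocyte markers were lower on these arrays as given for Alox5ap, and their part in the Hpgds values was not tested.

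The transporter Slco2a1 set oxPAPC apart from the other stimuli. It read 8.89, 9.03 and 9.61 in oxPAPC, against 10.46, 10.52 and 10.59 in medium, and fell by 1.35 (SE 0.198, adjusted p = 0.00177). Signals were 10.38, 10.37 and 10.03 in LPS and 9.98, 10.32 and 10.48 in oxLDL, and the direct differences were 1.09 for LPS minus oxPAPC (adjusted p = 0.00691) and 1.08 for oxLDL minus oxPAPC (adjusted p = 0.00720). Cyp1b1, a cytochrome P450 that oxidizes arachidonate among other substrates, fell by 1.38 in oxPAPC (adjusted p = 0.000693), and was higher by 1.06 in LPS and by 1.24 in oxLDL than in oxPAPC (adjusted p = 0.00243 and 0.00163). Cbr3 rose by 0.84 in oxPAPC (adjusted p = 0.0162) and was lower by 1.08 in LPS and by 0.78 in oxLDL than in oxPAPC (adjusted p = 0.00890 and 0.0303). Ptger4 was lower by 0.83 in LPS than in oxPAPC (adjusted p = 0.0263), and Abcc1 was lower by 0.83 in oxLDL than in oxPAPC (adjusted p = 0.0115). Between LPS and oxLDL 0 of the 23 were called by limma, and 5 had an unadjusted p under 0.05. Endothelial markers differed between the stimuli too. In LPS against oxPAPC 3 of 16 were higher and 1 lower, where 8.65% of all genes were called. In oxLDL against oxPAPC 5 were higher and 0 lower, where 12.4% of all genes were called. The part of these markers in the values of Slco2a1 and Cyp1b1 was not tested.

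**Figure D5:**
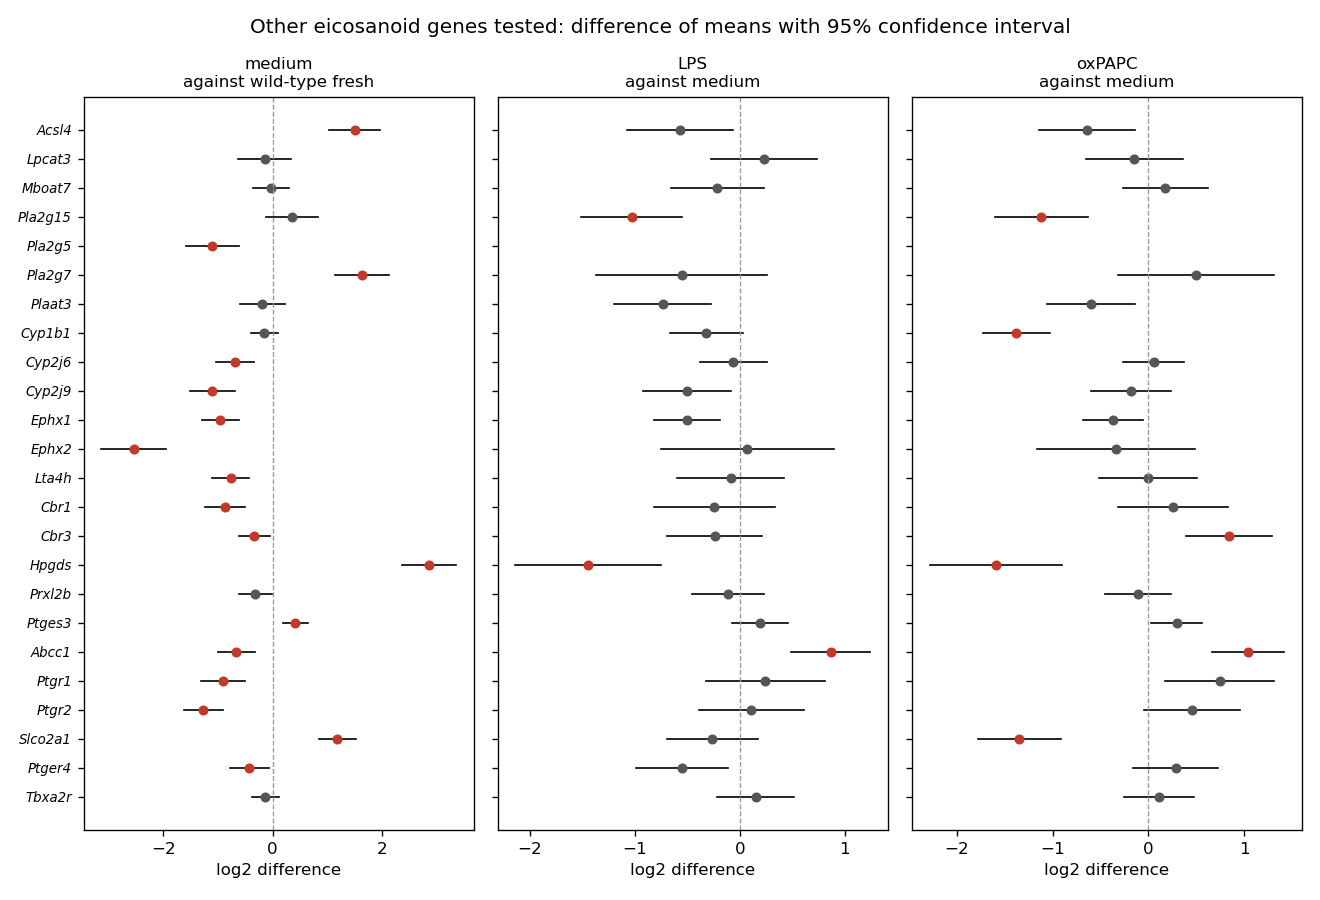
Log2 differences (horizontal axes) of the tested pathway genes outside the 8 members, in medium against fresh wild-type intima, LPS against medium and oxPAPC against medium. Points are differences of group means and bars 95% intervals, red where called at an adjusted p under 0.05 and grey where not. In medium against fresh wild-type intima Hpgds has the highest value (2.87) and Ephx2 the lowest (-2.54).

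In fresh ApoE-/- intima limma called 0 of the 22 pathway genes tested against wild type, and 3 had an unadjusted p under 0.05. The smallest p among them was that of Acsl4, which read lower by 0.76 in ApoE-/- intima (adjusted p = 0.0861).

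Across the 12 incubated arrays each tested member had other genes with a closely similar profile, given here as a description over arrays that share groups. The 3 most like Ptgs2 were Mmp3 (Pearson r 0.898), Rpf2 (0.862) and Naca (0.851), over a Ptgs2 range of only 10.87 to 11.42. Those most like Ptgis were Slc43a3 (0.963), Adam17 (0.955) and Acvr1b (0.950). Those most like Pla2g4a were Pmm2 (0.914), Elob (0.893) and Cmtr2 (0.851), and those most like Tbxas1 were Icosl (0.914), Creb1 (0.881) and Sec31a (0.861). For Alox5ap they were Plpbp (0.859), Mynn (0.850) and Thap4 (0.845), and for Ptges, whose signals hardly left background, Adra2c (0.880), Nek4 (0.861) and Cradd (0.854).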

How the data were processed

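The authors deposited 1 table of log2 signals for 22 arrays, made by RMA (affy), according to the submitters' notes on processing; versions and the arrays normalized together are not given in the sources used here. The arrays' medians ran from 5.23 to 5.39 and their 40th percentiles from 4.58 to 4.71. RMA compresses low signals. RNA was amplified, and samples had a RIN of at least 7.0, per the labels.

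Of 22626 probe sets, 18003 had 1 gene symbol, 287 several and 4336 none; 17977 matched RefSeq. Groups came from the sample labels. A gene was tested if the number of arrays with a signal above their 40th percentile reached the size of the smallest group compared. Differences were fitted with limma 3.58.1 (lmFit and eBayes) in R 4.3.3, on the 10 fresh arrays, the 12 incubated arrays, or the medium and fresh wild-type arrays, and p-values were adjusted by Benjamini-Hochberg over all genes tested (7264, 7550 and 7508); called means an adjusted p under 0.05. Members that failed the filter in fresh intima got an exact permutation test. The script was tested on simulated data. Every column of the table was used. Figures were drawn with matplotlib 3.10.9.

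The members and the lists of pathway and marker genes were chosen with earlier results of these data known. Alternatives were the filter, the scaling, the spread estimate, the arrays in the fit, the probe set and leaving out each array. The text names all members, at most the 4 called genes of a pathway list with the smallest adjusted p in a comparison (or the one of smallest p if none was called), and the 3 genes most correlated with each member. The number of arrays limits the precision.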

Additional observations from a re-analysis of the deposited data

Results flagged for a closer look

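In fresh wild-type intima, Pla2g4a read 7.65 on replicate 12 and 6.14 to 6.60 on the other 5 arrays. The gap from replicate 12 to the nearest array was 0.692 of the group's range, above Dixon's critical value for 6 arrays at the 95% level. Of the 16 combinations of gene and group tested this way it was the only one, and chance alone gives about 1 in 20. Without replicate 12, Pla2g4a rose by 0.97 in medium over fresh wild-type intima (limma adjusted p = 0.000246), the highest value over the 9 omissions. Among the fresh wild-type arrays, replicate 12 also had the lowest endothelial (8.28) and macrophage and leukocyte (4.60) marker means. It had the highest smooth muscle marker mean (9.27) and the highest Ptgs2 (5.90) and Ptgis (10.52) signals. The part of these markers in its Pla2g4a signal was not tested.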

How the results depend on the processing

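Over 714 recomputed values of 53 member differences, 655 kept their direction and side of the threshold, 16 lost a call, 13 gained one and 30 changed direction; all 30 were of differences that were not called. No paired analysis was possible because the groups compared share fewer than 2 replicate numbers. The rise of Ptgs2 in medium over fresh wild-type intima ranged from 6.15 to 6.50 over 9 omissions, and no alternative ended that call. The count of members called in LPS against medium was 0 to 1 over the omissions, in oxPAPC against medium 1 to 2, in medium against fresh wild-type intima 1 to 4, in LPS against oxLDL 0 to 0 (also 0 with no level filter), and in LPS or oxLDL against oxPAPC 0 to 1. Without a call on either side, Pla2g4a changed direction in LPS against medium (0.025 with cyclic loess) and in oxPAPC against medium (0.032 with median centring, 0.11 with cyclic loess), Tbxas1 in oxLDL against medium (-0.00352 with cyclic loess), and Ptgs2 on its second probe set in oxLDL (-0.60) and oxPAPC (-0.015) against medium.

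Omissions also turned the direction of differences that were not called. In ApoE-/- against wild-type intima Hpgd ranged from -0.57 to 0.057 and Tbxas1 from -0.0100 to 0.12. In LPS against medium Pla2g4a ranged from -0.16 to 0.010. In oxLDL against medium Ptgs2 ranged from -0.016 to 0.14, Hpgd from -1.07 to 0.40 and Tbxas1 from -0.12 to 0.18. In oxPAPC against medium Ptgs2 ranged from -0.12 to 0.15 and Pla2g4a from -0.53 to 0.29. In LPS against oxLDL Ptgis ranged from -0.037 to 0.21 and Tbxas1 from -0.037 to 0.53. In LPS against oxPAPC Pla2g4a ranged from -0.37 to 0.44, Tbxas1 from -0.10 to 0.46 and Alox5ap from -0.040 to 0.32. In oxLDL against oxPAPC Ptgs2 ranged from -0.10 to 0.17 and Tbxas1 from -0.24 to 0.055.

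The number of all genes called also moved. Over the omissions it was 1 to 68 in ApoE-/- against wild-type intima (31 with all arrays, 6 with no level filter and 77 with all 22 arrays in 1 fit), 235 to 389 in LPS against medium (683, and 1080 in 1 fit), 23 to 271 in oxLDL against medium (212, 544 in 1 fit and 96 with only the 6 arrays compared), 738 to 2007 in oxPAPC against medium (1606) and 3758 to 4365 in medium against fresh wild-type intima (4410). It was 132 to 266 in LPS against oxLDL (383, 648 in 1 fit and 224 with 6 arrays), 247 to 1207 in LPS against oxPAPC (653, 347 with 6 arrays) and 347 to 1372 in oxLDL against oxPAPC (934, 549 with 6 arrays). The causes were not tested.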
